A study of Homo sapiens with 60 samples.

Results

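The genes described here make cholesterol, sense and move it inside the cell, and export or store it. They are 31 named genes, of 60675 gene identifiers in the data, taken from a named list by symbol. Of these, 19 are enzymes of the synthesis route and 7 are genes of sterol sensing and transport. The other 5 are grouped as export and storage, most of them of the kind driven by liver X receptors. The study exposed HT29 cells, an established human colorectal adenocarcinoma line, to herbal extracts for 24 h and sequenced their messenger RNA, so that the expression profiles of the extracts could be compared. The table analysed here holds 60 libraries in 25 groups: 3 vehicle libraries and 8 extracts, made with 70% ethanol, at 3 doses each. Vehicle cells received DMSO, given as 0.1% in the sample labels. Coptidis Rhizoma was given at 12.8, 64 and 320 µg/mL with 2 libraries per dose, and Bupleuri Radix at 12.4, 62 and 310 µg/mL with 3 libraries per dose. These highest doses lie under 500 µg/mL because the IC20 of the extract, where it was lower, set the top dose. Zizyphi Fructus (2 libraries per dose), Citri Unshius Pericarpium, Cimicifugae Rhizoma and Aconiti Lateralis Radix Preparata (3 libraries per dose each) were given at 20, 100 and 500 µg/mL. The formulas Yijung-tang (2 libraries per dose) and Banhasasim-tang (1 library per dose) were given at the same 3 doses. The doses are called low, medium and high below. The labels do not say whether libraries of a group came from separate cultures, so p-values measure only the spread between these libraries.

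Cells build cholesterol from acetyl-CoA through the mevalonate route, squalene and lanosterol. The transcription factor SREBP2, encoded by SREBF2, switches on most of these enzymes when sterols in the endoplasmic reticulum are low, and is held back by the SCAP and INSIG proteins when sterols are high. Liver X receptors respond to oxidised sterols and switch on transporters such as ABCA1 and ABCG1, which move cholesterol out of the cell, and MYLIP, a ubiquitin ligase that removes lipoprotein receptors. In the intestinal epithelium both arms work beside the uptake of dietary sterol.

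The sequences just upstream of these genes are shown because the synthesis genes moved together with 1 of the extracts. RefSeq promoters of build GRCh38.p14, from 250 bases before to 50 bases after each gene start, were matched for 27 of the 31 genes, with 36 promoters in all. Searched on both strands were the sterol response element TCACNCCAC, the CCAAT box (ATTGG on the other strand) and the palindromic E-box TCACGTGA. The 4 stretches below mark matches of the first pair of motifs in capitals, end before the gene start of GENCODE 29 as well, which can lie upstream of the RefSeq start, and count their distances from the RefSeq start.
SREBF2, chr22:41832915-41833014, plus strand, 190 to 91 bases before the start: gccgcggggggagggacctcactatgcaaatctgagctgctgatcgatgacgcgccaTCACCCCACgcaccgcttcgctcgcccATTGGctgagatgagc
INSIG1, chr7:155297698-155297775, plus strand, 180 to 103 bases before the start: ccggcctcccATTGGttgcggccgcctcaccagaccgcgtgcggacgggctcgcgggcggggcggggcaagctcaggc
HMGCS1, chr5:43313513-43313582, minus strand, 170 to 101 bases before the start: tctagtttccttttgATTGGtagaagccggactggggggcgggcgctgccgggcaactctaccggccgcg
NSDHL, chrX:152830828-152830966, plus strand, 235 to 97 bases before the start: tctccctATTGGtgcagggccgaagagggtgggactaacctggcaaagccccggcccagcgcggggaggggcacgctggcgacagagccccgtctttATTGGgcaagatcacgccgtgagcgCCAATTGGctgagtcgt
The CCAAT box was in 16 of the 23 synthesis promoters, 4 of the 9 sensing and transport promoters and 3 of the 4 export and storage promoters, against 34.6% of all 35116 promoters of this length. The 16 synthesis promoters belong to 14 of the 16 synthesis genes matched, so promoters of 1 gene are not independent. TCACNCCAC was in 1.13% of all promoters and, among these genes, in SREBF2 alone. Only this form of the element was searched, and only in these promoters, so a gene without a match is not shown to lack the element. TCACGTGA was in 0.980% of all promoters and, among these genes, in INSIG1 alone. The motifs do not overlap each other in these stretches, except that CCAAT and ATTGG share 2 bases in NSDHL. A match of letters is not a binding site.

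The libraries held between 18083414 and 36715081 counts each, with a median of 24140986. Sums of 7 colon epithelial markers were 8096 to 13280 CPM, which are counts scaled to a common library size, whereas marker lists for leukocytes, fibroblasts, endothelium and hepatocytes summed to at most 4.71 CPM in any library. Replicate 3 of medium-dose Zizyphi Fructus stood apart: its TMM scaling factor was 0.567, against 0.931 to 1.04 in the rest. It adds to the spread that every test shares, and the biological coefficient of variation was 7.83% with it and 4.61% without it. Counts without this library are therefore given beside each result that they move. Calls of other genes can rise as well under such alternatives, and their share is not given beside those counts. A rise in such a count is therefore not read as a result about these genes. The share of reads from the mitochondrial ribosomal RNAs was 0.891 to 1.31% in most libraries, vehicle included. It was 9.79 to 10.5% at the low dose of Coptidis Rhizoma, 6.27 to 6.45% at the medium and 1.57 to 1.64% at the high dose, and 1.11%, 2.07% and 10.2% from low to high dose of Banhasasim-tang. Library sets were inferred from the leading part of the sample names, and the labels do not say what it stands for. All sample titles, vehicle included, name the same batch. By these names vehicle libraries form a set of their own, so doses of 1 extract, which share a library set, are compared first.

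All 31 genes passed the filter on low counts. In vehicle cells the levels per kilobase of exon spanned a wide range. SQLE, the squalene epoxidase that commits squalene to sterols, was highest at 185 ± 4.73 CPM per kb (SD, n = 3), and DHCR7, which takes 7-dehydrocholesterol to cholesterol, followed at 106 ± 2.49 CPM per kb. CYP51A1, the lanosterol demethylase, came next at 65.7 ± 1.47 CPM per kb. The ranges of these 3 genes did not overlap, whereas HMGCS1 at 54.5 ± 3.44 CPM per kb and FDPS at 53.3 ± 3.12 CPM per kb overlapped each other. INSIG1 was the highest gene outside the synthesis route, at 49.4 ± 0.566 CPM per kb. ABCG1 at 0.775 ± 0.112, SOAT1 at 0.575 ± 0.0241 and ABCA1 at 0.358 ± 0.0445 CPM per kb were the lowest, and their ranges did not overlap. All were above 3 counts in a library, which correspond to 0.0814 to 0.236 CPM.

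With Coptidis Rhizoma the synthesis route fell and the export genes rose between the low and the high dose. Of the 31 genes, 26 passed the test at an adjusted p under 0.05, 5 higher and 21 lower, against 56.2% of the 16022 genes tested (27.8% higher and 28.4% lower). Among the 19 synthesis enzymes 18 fell and none rose, with a median log2 change of -0.98, where the median over all genes was -0.02. Of the 7 sensing and transport genes 3 fell and 1 rose, and 4 of the 5 export and storage genes rose, with a median of 0.95. After TMM scaling each change is relative to the bulk of the genes, and in RNA from whole cultures fewer cells of a kind and less RNA per cell cannot be told apart. The split was also 5 higher and 21 lower without the mitochondrial genes and with DESeq2. Scaling by library totals in place of TMM moved the median of all genes by 0.129 and left 24 calls, 5 higher and 19 lower.

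**Figure D1:**
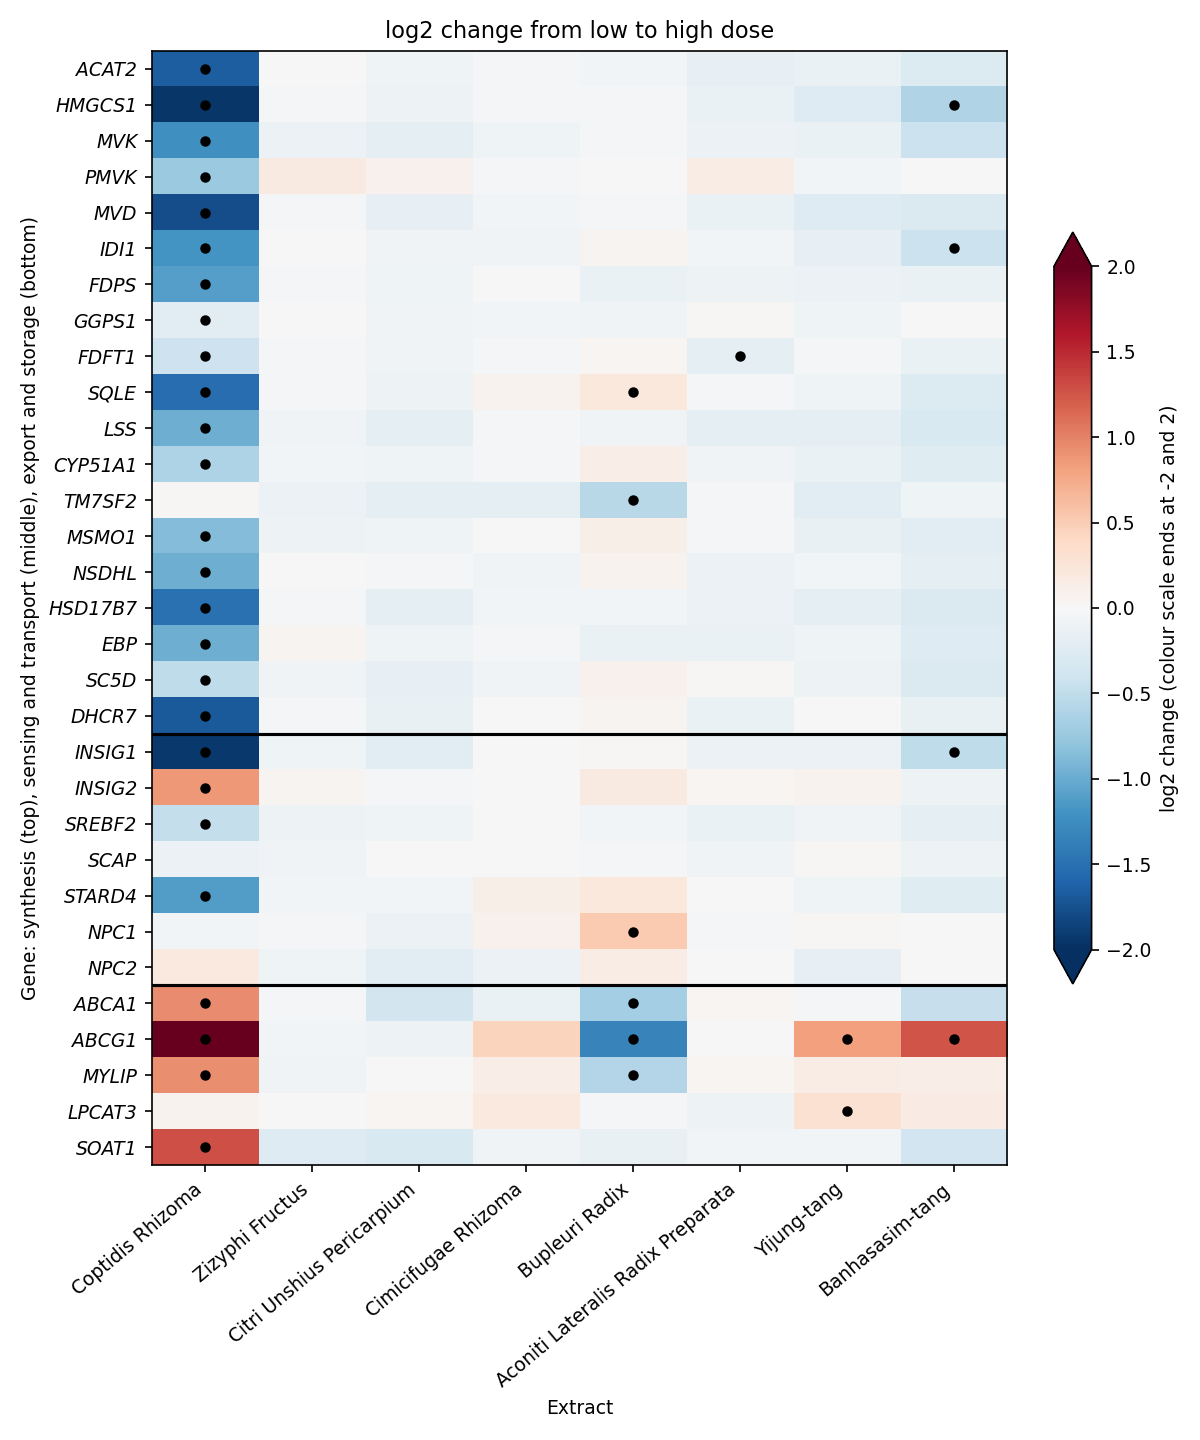
Log2 change from low to high dose (colour, scale ending at 2 in either direction) of the 31 genes, in rows split by role, with each of the 8 extracts, in columns; a dot marks an adjusted p under 0.05. The Coptidis Rhizoma column holds 26 dots, blue along the synthesis rows and red in the export rows, and the Bupleuri Radix column holds 6; under another scaling 0 of the 39 called changes turned sign, while up to 12 of the other changes did, none larger than 0.116 in log2.

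The early steps of the route fell. HMGCS1 (chromosome 5, 43289395 to 43313512, GRCh38), the HMG-CoA synthase, was at 231 and 232 CPM at the low dose, 186 and 185 CPM at the medium and 58.1 and 61.6 CPM at the high dose. Its high-dose libraries lay far below the rest, vehicle at 239 to 270 CPM included, and the low-to-high change was -1.95 ± 0.10 in log2 (edgeR, adjusted p = 1.2e-19). ACAT2 (chromosome 6, 159760328 to 159779055), the thiolase that starts the route, was at 97.5 and 94.5 CPM at the low and 30.04 and 31.5 CPM at the high dose, a change of -1.64 ± 0.08 (adjusted p = 2.5e-20). MVD (chromosome 16, 88651935 to 88663161), the diphosphomevalonate decarboxylase, went from 55.7 and 57.5 CPM to 17.0 and 16.3 CPM, a change of -1.77 ± 0.13 (adjusted p = 6e-15). For both genes the doses did not overlap, and the medium dose was much nearer to the low dose than to the high one. MVK, the mevalonate kinase, fell from 37.4 and 37.5 CPM to 16.4 and 15.7 CPM, a change of -1.22 ± 0.14 (adjusted p = 1.8e-09). IDI1, the isopentenyl diphosphate isomerase, fell from 164 and 154 CPM to 69.2 and 69.0 CPM, a change of -1.20 ± 0.08 (adjusted p = 4.4e-16). PMVK, the kinase between MVK and MVD, fell by 0.74 ± 0.22 (adjusted p = 0.0043), but its call was lost without high-dose replicate 2 (adjusted p = 0.0627) and with library totals (adjusted p = 0.0928).

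Later steps from squalene to cholesterol fell too. SQLE (chromosome 8, 124998497 to 125022283) was at 705 and 743 CPM at the low dose, 608 and 623 CPM at the medium and 250 and 253 CPM at the high dose. The 3 doses did not overlap, and the low-to-high change was -1.53 ± 0.06 in log2 (edgeR, adjusted p = 4.6e-25). DHCR7 (chromosome 11, 71428193 to 71452868) was at 376 and 393, then 309 and 313, then 117 and 122 CPM, a change of -1.68 ± 0.11 (adjusted p = 3.5e-17). HSD17B7, a 3-ketosteroid reductase of the route, was at 18.1 and 16.8 CPM at the low and 5.66 and 6.79 CPM at the high dose, a change of -1.49 ± 0.12 (adjusted p = 1.2e-13). All high-dose libraries of both genes lay under every library of the lower doses. NSDHL, LSS (the lanosterol synthase), EBP (a sterol isomerase) and MSMO1 (a sterol methyl oxidase) fell by 0.98, 0.98, 0.97 and 0.87 in log2.

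Around the farnesyl branch point the changes differed in size. FDPS, the farnesyl diphosphate synthase, fell by 1.10 ± 0.10 in log2, whereas FDFT1, the squalene synthase that draws on its product, fell by 0.41 ± 0.07. GGPS1, which leads farnesyl diphosphate away to protein prenylation, fell by 0.22 ± 0.07 (edgeR, adjusted p = 0.0099). The GGPS1 call was lost without low-dose replicate 2 (adjusted p = 0.0635), without high-dose replicate 3 (adjusted p = 0.0739) and with library totals (adjusted p = 0.399). CYP51A1 fell by 0.62 ± 0.06 and SC5D, a sterol desaturase, by 0.50 ± 0.11. TM7SF2, a sterol C14 reductase (chromosome 11, 65111845 to 65116384), was the 1 synthesis gene not called: it was at 42.8 and 42.8 CPM at the low, 48.4 and 45.6 CPM at the medium and 44.6 and 42.7 CPM at the high dose. Its low and high doses overlapped, with a change of 0.03 ± 0.15 (adjusted p = 0.88). Some genes of the route may share reads with neighbours, which was not measured. On the same strand, exons of GGPS1 overlap TBCE over 1422 bases and those of CYP51A1 overlap AC000120.2 over 2844 bases. On the opposite strand, exons of ACAT2 overlap SOD2 over 1141 bases. FDPS, CYP51A1 and HSD17B7 have 8, 3 and 2 named pseudogenes.

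Among the sensing genes, INSIG1 (chromosome 7, 155297776 to 155310235), the sterol-regulated anchor of SCAP, fell most. It was at 155 and 147 CPM at the low, 127 and 121 CPM at the medium and 39.4 and 40 CPM at the high dose. The doses did not overlap, vehicle was at 178 to 183 CPM, and the low-to-high change was -1.92 ± 0.06 in log2 (edgeR, adjusted p = 2e-26). Its paralogue INSIG2 (chromosome 2, 118088452 to 118110997) rose: 34.0 and 31.2 CPM at the low, 33.7 and 36.0 CPM at the medium and 60.9 and 58.5 CPM at the high dose, a change of 0.87 ± 0.07 (adjusted p = 1.2e-13). The low and medium doses of INSIG2 overlapped, and only the high dose stood above both. STARD4, a carrier that moves sterol between membranes, fell from 66.3 and 65.8 CPM to 31.7 and 29.5 CPM, a change of -1.11 ± 0.09 (adjusted p = 2.5e-13). SREBF2 (chromosome 22, 41833079 to 41907308) fell less, from 273 and 280 CPM to 196 and 200 CPM, a change of -0.48 ± 0.06 (adjusted p = 3.9e-09). The high-dose libraries of STARD4 and SREBF2 lay below all others of the extract. For SCAP, which escorts SREBP2, the log2 difference was -0.12 ± 0.08, and for NPC1 and NPC2, which hand cholesterol out of lysosomes, it was -0.06 ± 0.08 and 0.20 ± 0.10, none of them called. With library totals SCAP and NPC1 turned positive, at 0.01 and 0.07.

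ABCG1 (chromosome 21, 42199689 to 42297244), which loads cholesterol onto lipoproteins, had the largest change of the 31 genes. It was at 5.78 and 5.27 CPM at the low dose, 12.0 and 10.4 CPM at the medium and 57.1 and 56.2 CPM at the high dose, with vehicle at 4.00 to 5.35 CPM. Each dose stood above the one before, and the low-to-high change was 3.36 ± 0.17 in log2, or 10.3-fold (edgeR, adjusted p = 3.7e-20). ABCA1 (chromosome 9, 104781002 to 104928237), which loads free apolipoproteins, was at 6.05 and 6.84 CPM at the low, 6.06 and 4.98 CPM at the medium and 11.5 and 13.4 CPM at the high dose, a change of 0.95 ± 0.11 (adjusted p = 2.2e-09). MYLIP (chromosome 6, 16129125 to 16148248) was at 17.4 and 16.8, then 19.2 and 17.2, then 33.1 and 31.7 CPM, a change of 0.92 ± 0.08 (adjusted p = 1.3e-13). For ABCA1 and MYLIP the low and medium doses overlapped and the high dose lay above both. SOAT1 (chromosome 1, 179293714 to 179358680), which esterifies cholesterol for storage, rose from 4.00 and 4.41 CPM to 10.5 and 10.0 CPM, a change of 1.28 ± 0.16 (adjusted p = 4.6e-09). LPCAT3, a phospholipid acyltransferase driven by liver X receptors as ABCA1 is, changed by 0.08 ± 0.06 (adjusted p = 0.31). Its exons overlap those of EMG1 over 3100 bases on the opposite strand.

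**Figure D2:**
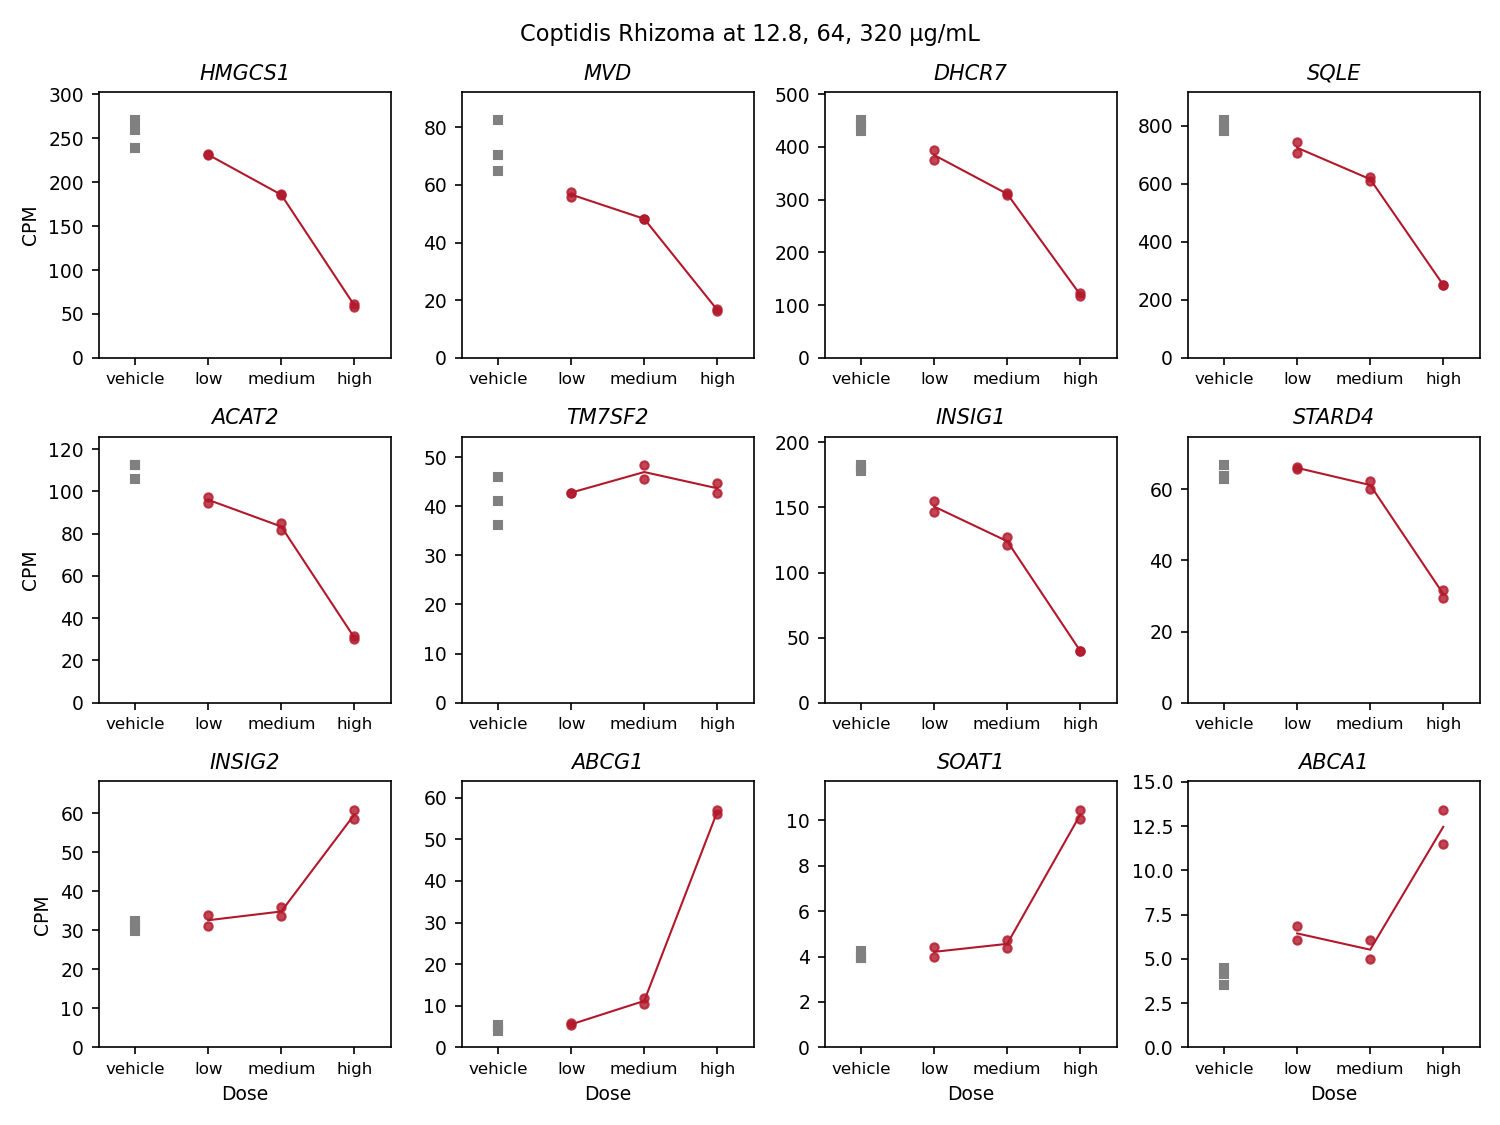
Level in CPM of 12 genes in each library (points) at vehicle (squares) and at the low, medium and high dose of Coptidis Rhizoma, with lines joining the means of the doses. HMGCS1, SQLE and INSIG1 step down mainly between medium and high dose, ABCG1 steps up at both, and vehicle belongs to another library set.

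Most of the change lay between the medium and the high dose. From 12.8 to 64 µg/mL, 3 of the 31 genes were called, against 1.35% of all genes: SQLE at -0.23 ± 0.05 in log2 (edgeR, adjusted p = 0.012), INSIG1 at -0.28 ± 0.06 (adjusted p = 0.0051) and ABCG1 at 1.02 ± 0.18 (adjusted p = 0.00025). In this step 14 of the 31 genes had an unadjusted p under 0.05, as did 1432 of the 16022 genes tested. The count of calls was 10 without the library that stood apart, and 14 with the compared groups alone, with no share of all genes beside them. It was 1 without medium-dose replicate 3, where SQLE (adjusted p = 0.0845) and INSIG1 (adjusted p = 0.189) missed the threshold. SQLE was also lost without medium-dose replicate 2 (adjusted p = 0.209) or low-dose replicate 3 (adjusted p = 0.305), and INSIG1 without low-dose replicate 2 (adjusted p = 0.195). With library totals the SQLE change was -0.14 (adjusted p = 0.806) and that of INSIG1 -0.19 (adjusted p = 0.563), and with no filter on low counts the adjusted p was 0.442 for SQLE and 0.176 for INSIG1. From 64 to 320 µg/mL, 24 genes were called, 6 higher and 18 lower, against 52.7% of all genes. The gene higher here but not over the whole range was NPC2, at 0.24 in log2 (adjusted p = 0.047), whose call was lost without any 1 of the 4 libraries compared (adjusted p = 0.0808 to 0.155).

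A second list held 26 genes of neighbouring functions, among them ERLIN1, ERLIN2, RNF139, MBTPS1, MBTPS2 and TMEM97 around sterol sensing, the liver X receptor genes NR1H2 and NR1H3, LBR, SCARB1, LIPA, NCEH1, OSBP and STARD3 in sterol handling, and DHDDS, NUS1, COQ2, PDSS1, PDSS2, FNTA, FNTB, PGGT1B, RABGGTA and RABGGTB in the isoprenoid branches. Between the low and high doses of Coptidis Rhizoma 20 of the 26 were called, 8 higher and 12 lower, with a median log2 change of -0.03, against 56.2% of all genes. The 3 largest falls were those of TMEM97, a sterol-binding membrane protein, at -1.78 ± 0.08 (edgeR, adjusted p = 1.8e-21), PDSS1, which makes the ubiquinone side chain, at -1.29 ± 0.13 (adjusted p = 9.9e-12), and RABGGTA, a prenyltransferase subunit, at -1.25 ± 0.10 (adjusted p = 1.8e-14). Among the rises were those of NR1H2 at 0.76 ± 0.15 (adjusted p = 2.4e-05) and NCEH1, a cholesteryl ester hydrolase, at 0.64 ± 0.06 (adjusted p = 1.1e-12). NR1H3 was lower by -0.49 ± 0.07 (adjusted p = 1.5e-07). With the other extracts 2 of the 26 were called for Bupleuri Radix, against 12.9% of all genes, 1 for Aconiti Lateralis Radix Preparata, against 2.71%, 1 for Banhasasim-tang, against 1.73%, and 0 for the remaining 4. The 1 for Banhasasim-tang was NR1H3, higher by 0.47 ± 0.10 (adjusted p = 0.0032).

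With Bupleuri Radix 3 of the 5 export and storage genes fell, SOAT1 and LPCAT3 were not called, and 2 of the 19 synthesis enzymes were called, 1 higher and 1 lower. From 12.4 to 310 µg/mL, 6 of the 31 genes were called, 2 higher and 4 lower, against 12.9% of all genes (6.34% higher and 6.59% lower). ABCG1 was at 4.29, 3.62 and 3.52 CPM at the low dose, 2.21, 3.25 and 2.32 CPM at the medium and 1.60, 1.69 and 1.27 CPM at the high dose. The 3 doses did not overlap, and ABCG1 fell by 1.33 ± 0.20 in log2 (edgeR, adjusted p = 2.2e-06). ABCA1 went from 6.04, 6.15 and 5.51 CPM to 4.22, 3.43 and 3.41 CPM, a change of -0.68 ± 0.11 (adjusted p = 5.6e-06), and MYLIP from 16.6, 16.0 and 16.6 CPM to 10.7, 10.9 and 11.0 CPM, a change of -0.59 ± 0.07 (adjusted p = 8.1e-09). For both, the medium-dose libraries lay between the other doses without overlap. The high-dose ABCA1 values overlapped vehicle at 3.51 to 4.51 CPM, which is a library set of its own.

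NPC1 (chromosome 18, 23506184 to 23586898) rose with Bupleuri Radix: 52.7, 53.0 and 54.6 CPM at the low, 58.0, 56.5 and 55.5 CPM at the medium and 78.5, 76.7 and 74.3 CPM at the high dose. The doses did not overlap, and the change was 0.52 ± 0.06 in log2 (edgeR, adjusted p = 5.3e-08). SQLE was at 846, 802 and 780 CPM at the low, 777, 752 and 760 CPM at the medium and 971, 904 and 931 CPM at the high dose, a change of 0.21 ± 0.04 (adjusted p = 0.00064), and its call was lost with library totals (adjusted p = 0.413). TM7SF2 fell from 38.2, 37.5 and 39.2 CPM to 27.2, 25.7 and 25.0 CPM, a change of -0.56 ± 0.13 (adjusted p = 0.0015). So SQLE was high at the top dose alone, whereas TM7SF2 was already lower, at 33.1 to 34.7 CPM, at the medium dose. The remaining 25 genes were not called, and the median over the synthesis enzymes was -0.02, against -0.01 over all genes. Without the Zizyphi Fructus library that stood apart, 11 genes were called, and 12 with the 2 dose groups alone. The share of all genes called is not given for these counts. The split was 1 higher and 4 lower with library totals, 4 and 4 with DESeq2's size factors and 5 and 4 with DESeq2 itself.

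**Figure D3:**
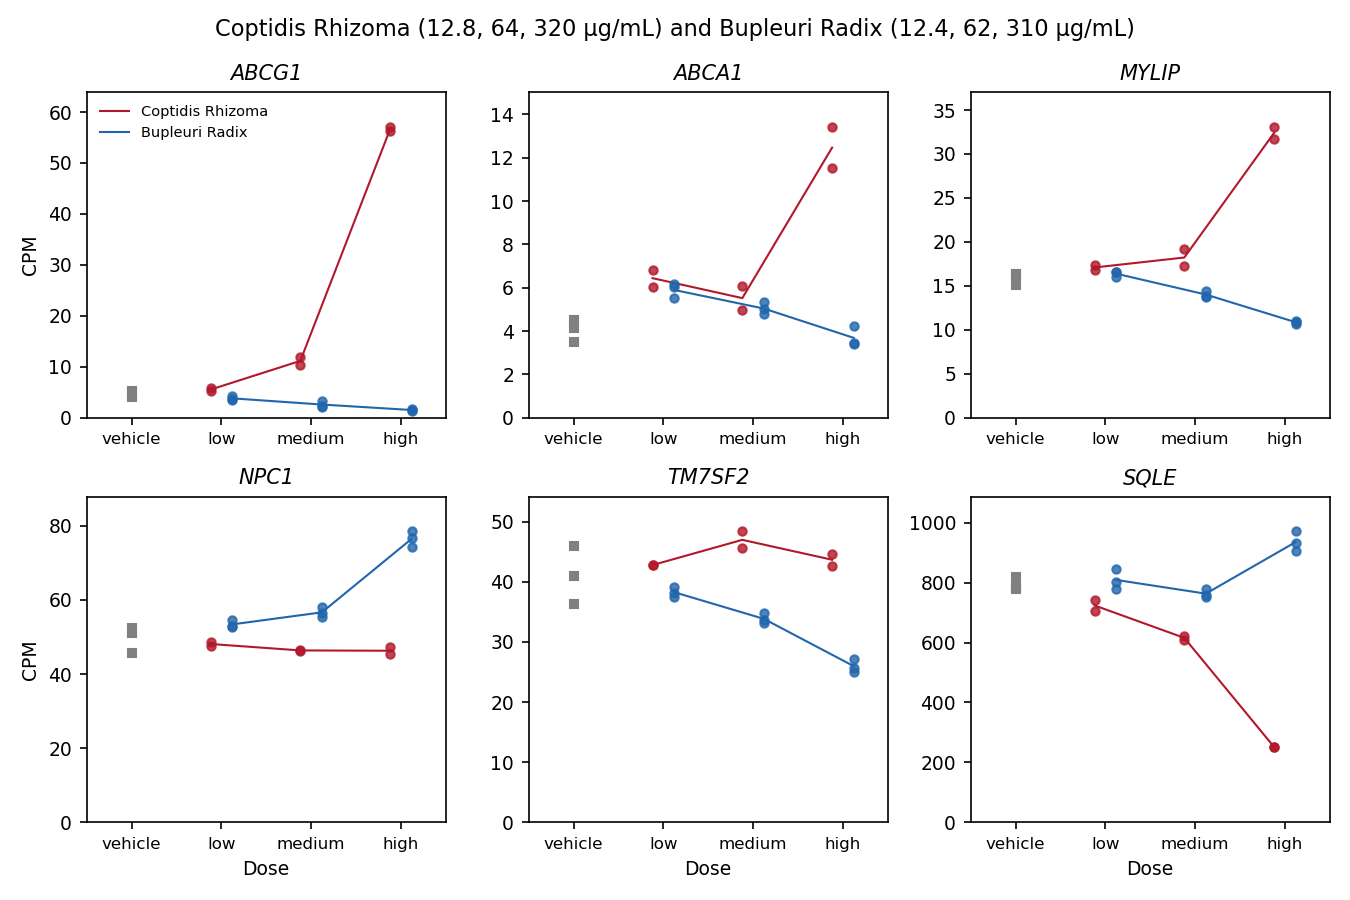
Level in CPM of ABCG1, ABCA1, MYLIP, NPC1, TM7SF2 and SQLE in each library (points) at the low, medium and high dose of Coptidis Rhizoma and of Bupleuri Radix, which come from different library sets and were given at different doses. By mean, ABCG1, ABCA1 and MYLIP are highest at the high dose of the first extract and lowest at that of the second. SQLE is lowest at the high dose of the first and highest at that of the second.

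A test of whether the low-to-high change differed between these extracts was added after these opposite directions had been seen, and their doses and library sets were not the same. The difference passed for 27 of the 31 genes, 6 higher and 21 lower with Coptidis Rhizoma, against 45.5% of all genes. The log2 difference was 4.69 ± 0.26 for ABCG1 (edgeR, adjusted p = 9.8e-19), 1.63 ± 0.15 for ABCA1 (adjusted p = 1.3e-11) and 1.52 ± 0.10 for MYLIP (adjusted p = 6.3e-16). It was -1.74 ± 0.07 for SQLE (adjusted p = 8.8e-23), -0.57 ± 0.10 for NPC1 (adjusted p = 1.1e-05) and 0.59 ± 0.20 for TM7SF2 (adjusted p = 0.013). The NPC1 difference was lost with library totals (adjusted p = 0.13), as was that of SREBF2 (adjusted p = 0.297). PMVK lost its call with library totals (adjusted p = 0.275) and without any of 5 libraries: Coptidis Rhizoma high replicate 2 (0.135) or low replicate 3 (0.0937), or Bupleuri Radix low replicate 1 (0.0549), high replicate 2 (0.0523) or high replicate 3 (0.0638), each value being an adjusted p. GGPS1, SCAP, NPC2 and LPCAT3 were not called.

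ABCG1 was also the gene called with both formulas. With Banhasasim-tang, which had 1 library per dose and so takes its spread from the other groups, it was at 4.68, 5.92 and 11.2 CPM from low to high dose, a change of 1.26 ± 0.25 in log2 (edgeR, adjusted p = 0.002). Genes of synthesis and sensing were lower at the high dose. HMGCS1 was at 270, 243 and 178 CPM, a change of -0.60 ± 0.14 (adjusted p = 0.0099), and INSIG1 at 185, 172 and 129 CPM, a change of -0.51 ± 0.09 (adjusted p = 0.00012). IDI1 was at 181, 171 and 134 CPM, a change of -0.43 ± 0.11 (adjusted p = 0.036), and SQLE changed by -0.27, short of the threshold (adjusted p = 0.053). So 4 of the 31 genes were called, 1 higher and 3 lower, against 1.73% of all genes, and 17 of the 19 synthesis enzymes had a negative change, with a median of -0.26 against 0.01 over all genes. Negative changes of synthesis enzymes, mostly uncalled, were also seen with other extracts. They were 18 of 19 with Yijung-tang and with Citri Unshius Pericarpium, 17 with Cimicifugae Rhizoma and 16 with Aconiti Lateralis Radix Preparata. Zizyphi Fructus had 13 and Bupleuri Radix 11. The median over all genes lay between -0.01 and 0.01 with each of these. Banhasasim-tang, at 17, lay within that range of counts. The mitochondrial ribosomal share was 1.11% at the low and 10.2% at the high dose, and 5 genes were called, 1 higher and 4 lower, when mitochondrial genes were left out or DESeq2 was used. The IDI1 call was lost with no filter on low counts (adjusted p = 0.0576). Library totals, which shifted the median of all genes by -0.115, ended the calls of IDI1 (adjusted p = 0.427) and ABCG1 (adjusted p = 0.0895). They added a call of SC5D, at -0.40 in log2, so the split was 0 higher and 3 lower. There were 9 calls without the library that stood apart.

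With Yijung-tang, 2 of the 31 genes were called, against 0.206% of all genes. An unadjusted p under 0.05 was found for 5 of the 31 and for 970 of the 16022 genes tested. ABCG1 was at 3.79 and 5.20 CPM at the low, 4.69 and 5.22 CPM at the medium and 8.41 and 7.46 CPM at the high dose, a change of 0.82 ± 0.18 in log2 (edgeR, adjusted p = 0.043). LPCAT3 was at 74.0 and 76.0, then 81.0 and 82.7, then 96.8 and 87.6 CPM, a change of 0.30 ± 0.06 (adjusted p = 0.018). The high dose lay above both other doses for each gene, while low and medium doses overlapped for ABCG1 alone. Both calls rest on few libraries. That of ABCG1 was lost without high replicate 1 (adjusted p = 0.504), low replicate 1 (0.758), high replicate 2 (0.195) or low replicate 2 (0.0621), and with library totals (0.405). That of LPCAT3 was lost without high replicate 1 (adjusted p = 0.613), low replicate 1 (0.324) or low replicate 2 (0.187), with library totals (0.867) and with no filter on low counts (0.234). The count was 4 without the Zizyphi Fructus library that stood apart and 9 with the compared groups alone, with no share of all genes beside them.

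The formulas shared a library set and doses, so their high doses were compared directly. At 500 µg/mL, 2 of the 31 genes differed, against 1.57% of all genes. INSIG1 was lower with Banhasasim-tang by -0.34 ± 0.07 in log2 (edgeR, adjusted p = 0.0049), and ABCA1, at 4.20 CPM against 6.25 and 7.42 CPM with Yijung-tang, by -0.70 ± 0.15 (adjusted p = 0.0059). The ABCA1 call was lost without Yijung-tang high-dose replicate 2 (adjusted p = 0.158), which left 1 call, and both were lost with no filter on low counts (adjusted p = 0.141 for INSIG1 and 0.086 for ABCA1). With library totals the INSIG1 call was lost too (adjusted p = 0.0919). Without the library that stood apart 5 genes differed, and 13 with the compared groups alone. For the low-to-high change itself, edgeR called none of the 31 genes as different between the formulas, against 0.462% of all genes. DESeq2 called 1. An unadjusted p under 0.05 was found for 3 of the 31 and for 804 of the 16022 genes tested. The nearest was INSIG1, with a difference of -0.40 ± 0.10 (adjusted p = 0.0748), and 2 genes passed without the library that stood apart.

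**Figure D4:**
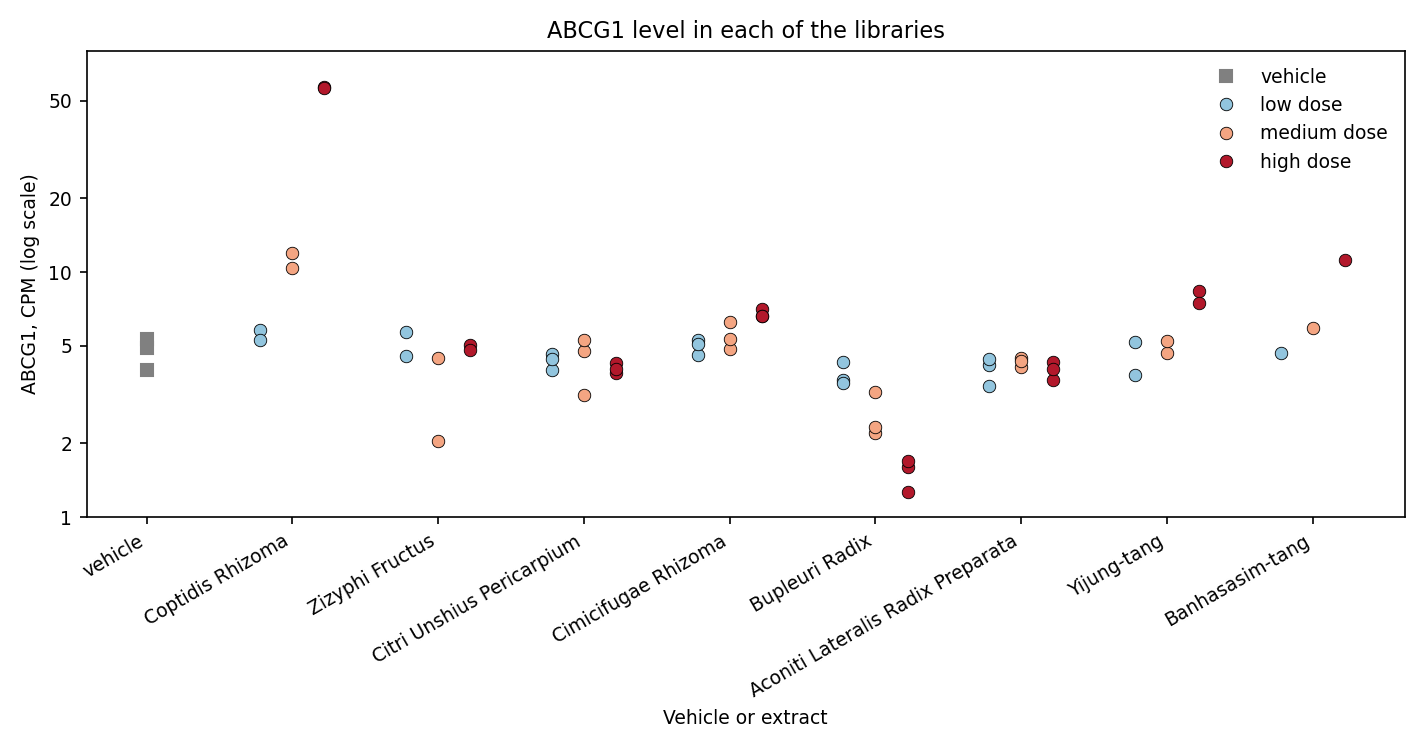
ABCG1 level in CPM (log axis) in each of the 60 libraries (points), by group. The 2 high-dose Coptidis Rhizoma libraries, at 56.2 and 57.1 CPM, lie above all others and the 3 high-dose Bupleuri Radix libraries, at 1.27 to 1.69 CPM, below all others.

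Across the 25 groups the ABCG1 mean ran from 1.52 CPM at the high dose of Bupleuri Radix to 56.6 CPM at that of Coptidis Rhizoma, a span of 37.3-fold. ABCA1 and MYLIP had their lowest and highest group means at the same 2 groups, with spans of 3.38-fold and 2.98-fold. HMGCS1 spanned 6.12-fold, INSIG1 4.65-fold and MVD 4.35-fold, each with its lowest mean at high-dose Coptidis Rhizoma. GGPS1, LPCAT3 and SCAP varied least, by 1.18-fold, 1.25-fold and 1.26-fold. The medium dose of Zizyphi Fructus, the group that holds the library standing apart, gave the highest mean of HMGCS1 and GGPS1 and the lowest of SCAP. Without that library the spans were 4.60-fold for HMGCS1, 1.17-fold for GGPS1 and 1.18-fold for SCAP.

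Few genes were called with the other 4 single-herb extracts. With Aconiti Lateralis Radix Preparata 1 of the 31 genes was called, against 2.71% of all genes: FDFT1, the squalene synthase, at 196, 211 and 202 CPM at the low and 173, 177 and 180 CPM at the high dose. Its doses did not overlap, and it fell by 0.20 ± 0.05 in log2 (edgeR, adjusted p = 0.027). The FDFT1 call was lost without high replicate 1 (adjusted p = 0.155), 2 (0.0633) or 3 (0.0617), without low replicate 2 (0.188) or 3 (0.0703), with library totals (0.233) and with no filter on low counts (0.226). Without the Zizyphi Fructus library that stood apart 6 genes were called, all lower, 8 with the compared groups alone, and 2 with DESeq2. No share of all genes stands beside these counts.

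With Citri Unshius Pericarpium edgeR called 0 of the 31 genes, against 0.137% of all genes, and DESeq2 called 1, INSIG1. An unadjusted p under 0.05 was found for 6 of the 31 and for 1049 of the 16022 genes tested. The INSIG1 change was -0.20 in log2 (edgeR, adjusted p = 0.0687), and 4 genes were called, all lower, without the library that stood apart. With Cimicifugae Rhizoma edgeR called 0, against 0.874% of all genes, and DESeq2 called 1, LPCAT3. An unadjusted p under 0.05 was found for 3 of the 31 and for 1191 of the 16022 genes tested. The LPCAT3 change was 0.19 (edgeR, adjusted p = 0.0522). LPCAT3 was called without high replicate 2 (adjusted p = 0.0486) or low replicate 2 (adjusted p = 0.0474), and 2 genes were called without the library that stood apart. With Zizyphi Fructus edgeR called 0, against 0% of all genes, and DESeq2 called 0. An unadjusted p under 0.05 was found for none of the 31 and for 332 of the 16022 genes tested. Member changes with this extract lay between -0.26 and 0.18 in log2.

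Citri Unshius Pericarpium and Cimicifugae Rhizoma shared a library set and doses. At 500 µg/mL 1 of the 31 genes differed between them, against 0.905% of all genes. This was ABCG1, at 7.08, 6.65 and 6.60 CPM with Cimicifugae Rhizoma and 3.86, 4.26 and 4.01 CPM with Citri Unshius Pericarpium. The libraries did not overlap, and the difference was 0.74 ± 0.16 in log2 (edgeR, adjusted p = 0.006), lost with library totals (adjusted p = 0.137). Without the library that stood apart 4 genes differed, and 3 with DESeq2. For the low-to-high change edgeR called none of the 31 genes as different, against 0.2% of all genes, and DESeq2 called 0. An unadjusted p under 0.05 was found for 5 of the 31 and for 593 of the 16022 genes tested. Within Cimicifugae Rhizoma, ABCG1 was at 5.26, 4.57 and 5.07 CPM at the low dose and its low-to-high change of 0.45 ± 0.15 (adjusted p = 0.27) was not called, although its low and high doses did not overlap.

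Against vehicle, Coptidis Rhizoma at 320 µg/mL had 26 genes called, 5 higher and 21 lower, as many in each direction as against its own low dose, with 62.9% of all genes called. Bupleuri Radix had 14 (6 higher and 8 lower, against 27% of all genes), Cimicifugae Rhizoma 11 (5 and 6, against 18%), Citri Unshius Pericarpium 10 (1 and 9, against 13.2%), Aconiti Lateralis Radix Preparata 10 (4 and 6, against 17.3%), Yijung-tang 10 (4 and 6, against 7.63%), Banhasasim-tang 10 (1 and 9, against 7.61%) and Zizyphi Fructus 3 (1 and 2, against 6.91%). All 8 comparisons share the 3 vehicle libraries, so their calls are not independent. By a chi-square of counts per gene, vehicle replicate 1 was further from replicates 2 (17.6) and 3 (21.2) than those were from each other (4.63). EBP and MSMO1, enzymes of late synthesis, were lower than vehicle with all 8 extracts, and ABCA1 was higher with 6. Several of these calls ended under alternatives. With library totals MSMO1 kept its call with Coptidis Rhizoma alone. With the compared groups alone, EBP and MSMO1 lost their calls for Zizyphi Fructus, Yijung-tang and Banhasasim-tang. ABCA1 lost its call there for Zizyphi Fructus, Citri Unshius Pericarpium and Yijung-tang. ABCA1 with Citri Unshius Pericarpium (adjusted p = 0.0499) was lost in 10 of 15, among them without vehicle replicate 1 (adjusted p = 0.343) or 2 (0.0911) and without high replicate 2 (0.161) or 3 (0.207). EBP with Zizyphi Fructus was lost in 5 of 14, among them without vehicle replicate 1 (adjusted p = 0.24) and high replicate 2 (0.0511) or 3 (0.289), and MSMO1 with that extract in 4, among them without high replicate 2 (0.0805) or 3 (0.0558). MSMO1 with Bupleuri Radix was lost in 7 of 15, among them without vehicle replicate 1 (adjusted p = 0.177) or 3 (0.0596) and without high replicate 1 (0.0549), 2 (0.112) or 3 (0.113). MSMO1 with Yijung-tang was lost in 3, among them without high replicate 2 (adjusted p = 0.0509). EBP, MSMO1 and ABCA1 already differed at low doses. In all 19 low-dose libraries EBP and MSMO1 lay below every vehicle library, as did ACAT2, PMVK and FDPS. ABCA1, at 5.51 to 7.17 CPM, lay above vehicle at 3.51 to 4.51 CPM there. These are 5 lower and 1 higher of 31, where 12.7% of all genes did not overlap (6.05% lower and 6.62% higher), and the other 25 genes overlapped. By sample name the vehicle libraries are a set of their own, so library set and treatment cannot be told apart in these differences.

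These counts moved with the libraries used. Without vehicle replicate 1 they were 4 for Citri Unshius Pericarpium, 5 for Cimicifugae Rhizoma, 6 for Aconiti Lateralis Radix Preparata and 6 for Yijung-tang. Without Cimicifugae Rhizoma high replicate 3 the count was 6, and without either high-dose library it was 4 for Yijung-tang and 1 for Zizyphi Fructus. Without the medium-dose Zizyphi Fructus library that stood apart the counts were 10 for Zizyphi Fructus and 16 each for Aconiti Lateralis Radix Preparata and Yijung-tang. They were 18 each for Citri Unshius Pericarpium and Cimicifugae Rhizoma and 19 for Banhasasim-tang. The spread that every test shares was lower there too, and the share of all genes called is not given beside these counts. With library totals the split was 2 higher and 1 lower for Cimicifugae Rhizoma, 3 and 1 for Yijung-tang, 1 and 3 for Banhasasim-tang, and 2 and 0 for Zizyphi Fructus. The count for Coptidis Rhizoma stayed between 25 and 27 when any 1 library was left out.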

How the data were processed

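The values are RSEM expected counts per gene, deposited by the authors. Per the submitters' processing notes the tools included FastQC 0.11.9, Trim Galore 0.6.5, STAR 2.7.3a, RSEM 1.3.3 and build GRCh38. The annotation and strand setting used for counting are not given in the sources used here, so reads of overlapping genes may be shared between them: 15 of the 31 genes share exon bases with another gene. Per the labels the libraries are directional and paired-end. Of 270 columns, 210 belong to no sample here and were not used.

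Expected counts were rounded (91.0% were whole), and identifiers were matched to GENCODE 29 symbols (93.2% had one). The 16022 genes that reached 0.5 CPM in 3 or more libraries were tested in R 4.3.3 with edgeR 4.0.16 (TMM, quasi-likelihood F test, 25 group means over 60 libraries, 35 residual degrees of freedom), with Benjamini-Hochberg adjustment over all of them and a threshold of 0.05. All fold changes come from that test. The SE is the absolute log2 change divided by the square root of F, and CPM values use TMM. The scripts were tested on simulated data. Floors of 3 counts cover counting error only. Samples were grouped by extract and dose from the labels.

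The genes, lists and tests were chosen with earlier results of these data known. Library values are given for the 8 synthesis, 4 sensing and 4 export genes with the largest change with Coptidis Rhizoma, and for genes called with another extract. Alternatives were DESeq2 1.42.0, its size factors, library totals, no filter or 2 CPM, the compared groups alone, a replicate block, leaving out each library, and, added after seeing the data, leaving out mitochondrial genes. The difference between Coptidis Rhizoma and Bupleuri Radix was also added after seeing the data. Some genes of the second list enter its counts and are not reported here by name.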

Additional observations from a re-analysis of the deposited data

Results flagged for a closer look

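ABCG1, ABCA1, MYLIP and SQLE changed in opposite directions with different extracts between low and high dose. The log2 change of ABCG1 was 3.36 with Coptidis Rhizoma, 1.26 with Banhasasim-tang and 0.82 with Yijung-tang, but -1.33 with Bupleuri Radix. For ABCA1 it was 0.95 with Coptidis Rhizoma and -0.68 with Bupleuri Radix, for MYLIP 0.92 and -0.59, and for SQLE -1.53 and 0.21. The difference between Coptidis Rhizoma and Bupleuri Radix passed edgeR's test for each: 4.69 for ABCG1, 1.63 for ABCA1, 1.52 for MYLIP and -1.74 for SQLE. This test was added after the directions had been seen, and the extracts come from different library sets and doses. The differences between Bupleuri Radix and each formula were not tested. Banhasasim-tang had 1 library per dose, so its doses cannot overlap. With library totals the ABCG1 calls of both formulas and the SQLE call of Bupleuri Radix were lost. The ABCG1 call of Yijung-tang was also lost without any 1 of its low-dose or high-dose libraries.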

How the results depend on the processing

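No gene named as called reversed its direction under an alternative: of 2778 recomputed changes, 2556 kept direction and side of the threshold, 222 lost the call and 0 reversed. The calls of Coptidis Rhizoma from low or medium to high dose and from vehicle to high dose, and the difference from Bupleuri Radix, stayed within 1.5 times their number under every alternative run; over all counts recomputed 258 did and 75 did not. The cause was not tested. Numbers are members called, and the share of all genes called under the same alternative is not given.
Leaving out 1 library gave ranges, low to high dose, of 0 to 4 for Citri Unshius Pericarpium, 0 to 2 for Cimicifugae Rhizoma, 6 to 11 for Bupleuri Radix, 0 to 6 for Aconiti Lateralis Radix Preparata, 0 to 4 for Yijung-tang and, for Banhasasim-tang, 9 without the library that stood apart. Against vehicle they were 1 to 10 for Zizyphi Fructus, 4 to 18 for Citri Unshius Pericarpium, 5 to 18 for Cimicifugae Rhizoma, 11 to 19 for Bupleuri Radix, 6 to 16 for Aconiti Lateralis Radix Preparata, 4 to 16 for Yijung-tang and 8 to 19 for Banhasasim-tang. They were 1 to 10 for low to medium Coptidis Rhizoma, 1 to 4 for Cimicifugae Rhizoma against Citri Unshius Pericarpium, 1 to 5 for Banhasasim-tang against Yijung-tang and 0 to 2 for the difference of their changes.
Library totals gave 0 for Aconiti Lateralis Radix Preparata, 0 for Yijung-tang and 0 for Cimicifugae Rhizoma against Citri Unshius Pericarpium, and against vehicle 1 for Citri Unshius Pericarpium, 3 for Cimicifugae Rhizoma, 8 for Bupleuri Radix and 4 each for Aconiti Lateralis Radix Preparata, Yijung-tang and Banhasasim-tang. No filter gave 0 for Aconiti Lateralis Radix Preparata, 1 for Yijung-tang, 1 for low to medium Coptidis Rhizoma, 0 for Banhasasim-tang against Yijung-tang and 5 for Zizyphi Fructus against vehicle. A filter of 2 CPM gave 1 for Cimicifugae Rhizoma and 5 for Zizyphi Fructus against vehicle. The compared groups alone gave 12 for Bupleuri Radix, 8 for Aconiti Lateralis Radix Preparata, 9 for Yijung-tang, 14 for low to medium Coptidis Rhizoma, 3 for Cimicifugae Rhizoma against Citri Unshius Pericarpium, 13 for Banhasasim-tang against Yijung-tang and 2 for the difference of their changes, and against vehicle 0 for Zizyphi Fructus, 0 for Yijung-tang and 1 for Banhasasim-tang. DESeq2 gave 1 for Citri Unshius Pericarpium, 1 for Cimicifugae Rhizoma, 2 for Aconiti Lateralis Radix Preparata, 3 for Cimicifugae Rhizoma against Citri Unshius Pericarpium, 1 for the difference between the formulas' changes and 5 for Zizyphi Fructus against vehicle.
The replicate block gave 1 for Citri Unshius Pericarpium (INSIG1, adjusted p = 0.0283, and 0.0223 within the library set, also 1), 1 for Cimicifugae Rhizoma, 3 for Cimicifugae Rhizoma against Citri Unshius Pericarpium and 1 for the difference between the formulas' changes. Same-numbered libraries correlated at -0.0555 to 0.316, under 0.1 for some pair of every extract with more than 1 library per dose. With 2 libraries per dose, same-number and other-number correlations are equal in size and opposite in sign by construction, so they cannot bear on pairing. The labels do not give pairs, so the numbers were not taken as pairs, and whether they are was not settled. In the 4 extracts with 3 libraries per dose the lowest same-number correlation (0.0407 to 0.0931) was above the highest between other numbers (-0.00417 to 0.061), a hint from the data, not the design. With 1 or 2 libraries per dose, small changes of Coptidis Rhizoma, Zizyphi Fructus and the formulas are least certain, and below 3 counts no level can be read.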
